A study of Mus musculus with 4 samples.

Results

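The genes described here are the heat shock proteins, the DnaJ co-chaperones and the protein disulfide isomerases of mouse liver, measured under atherogenic diets. A gene was included when the symbol in the array's platform annotation began with any of 10 prefixes: Hspa, Hspb, Hspd, Hspe, Hsph, Hsp90, Dnaja, Dnajb, Dnajc or Pdia. Of 13705 genes with a probe that named 1 gene and gave a value on every array, 63 met that rule, through 85 probes of which 84 were used. The remaining probe, of Dnaja4, lacked a value on the high-fat 6-week array. From background knowledge, 39 of the 63 were placed in the cytosol or nucleus, 14 in the endoplasmic reticulum and 9 in mitochondria, and Dnajc18 was not assigned. Hspbp1, an Hsp70 nucleotide exchange cofactor, and Hspb11 were included by their symbols alone. Hspa1a, Hspa1b and Hsp90ab1, which code for the inducible Hsp70 and the abundant cytosolic Hsp90, were not analysed here.

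Livers came from male C57Bl/6J mice, in 4 groups that received an atherogenic diet with high fat for 24 weeks, the same for 6 weeks, an atherogenic diet alone (called plain here) for 24 weeks, or the plain diet for 6 weeks. Each group was represented by 1 array of long oligonucleotides, on which its RNA (Cy5) was hybridised against RNA from livers of mice on standard chow (Cy3). The chow duration is labelled for 3 of the arrays and not for the plain 6-week array, and the labels do not give the animals' age, the number of animals per RNA sample, or whether arrays shared a chow sample. All values below are log2 ratios of diet over chow, so a value above 0 means more signal with the diet. Fat content and duration were compared over single arrays, and p-values therefore measure the spread between the 4 conditions, not between animals.

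Chaperones hold unfolded proteins and release them for folding. Hsp70 proteins (Hspa) do this in cycles of ATP hydrolysis that J-domain proteins (Dnaj) start and that nucleotide exchange factors such as Hsph1 end, while Hsp90 proteins act on partly folded clients and small heat shock proteins (Hspb) keep denatured proteins soluble. The endoplasmic reticulum, which in hepatocytes makes the plasma proteins, has its own Hsp70 (Hspa5, known as BiP), Hsp90 (Hsp90b1, known as GRP94) and the disulfide isomerases (Pdia), which form and rearrange disulfide bonds. Mitochondria have Hspa9 and the chamber formed by Hspd1 and Hspe1. The unfolded protein response raises transcription of the reticulum's chaperones through a promoter element made of CCAAT and CCACG separated by 9 bases, and the heat shock response acts on cytosolic and some mitochondrial chaperones through repeats of GAA and TTC.

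The promoter stretches that hold these elements are shown because each element belongs to a known stress response. Few chaperones held either element, so the search does not sort the set by response. RefSeq windows from 250 bases before to 50 bases after the transcription start (build GRCm38.p6) were matched by symbol for 52 of the 63 genes and searched on both strands. The element of CCAAT and CCACG was found in 0.119% of 32851 windows, or in 0.137% of the 27025 genes with a window. Among the 52 chaperones with a window it was found in 4, or 7.69%: Hspa5, Hsp90b1, Pdia6 and Dnajc3. All 4 belong to the endoplasmic reticulum. Each stretch reads 5′ to 3′ on the gene's strand, with the CCAAT and CCACG boxes, or their complements CGTGG and ATTGG, in capitals.
Hspa5 (chr2:34772010-34772058, plus strand): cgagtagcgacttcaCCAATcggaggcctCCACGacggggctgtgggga
Hsp90b1 (chr10:86705518-86705671, minus strand): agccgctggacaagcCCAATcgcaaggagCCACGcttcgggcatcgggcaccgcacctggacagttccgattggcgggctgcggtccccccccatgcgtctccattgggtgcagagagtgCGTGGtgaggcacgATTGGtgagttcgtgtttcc
Pdia6 (chr12:17266476-17266524, plus strand): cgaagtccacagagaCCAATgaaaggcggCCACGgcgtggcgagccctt
Dnajc3 (chr14:118937812-118937860, plus strand): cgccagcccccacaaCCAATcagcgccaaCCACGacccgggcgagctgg
The Hspa5, Pdia6 and Dnajc3 stretches lie on the plus strand and hold the element once, and the Hsp90b1 stretch holds it once in each orientation. A related element, ATTGG and CCACG 1 base apart, was found in 0.0365% of windows and 0.0444% of genes, and in Dnajb11, after its start. The unfolded protein response element TGACGTGG was found in 0.676% of windows and 0.714% of genes, and in none of the 52. These matches are descriptions of the letters in the windows and not measured binding.

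The heat shock element, searched as GAA, TTC and GAA each 2 bases apart, was found in 0.603% of windows and 0.662% of genes. Among the 52 chaperones with a window it was found in 4, or 7.69%: Hspd1, Hspe1, Dnajb6 and Hsph1. Hspd1 and Hspe1 are transcribed in opposite directions from neighbouring starts, and their windows held the same genomic site. Units of the element are in capitals. In the shared stretch 2 overlapping matches run into each other.
Hspe1 (chr1:55088044-55088091, plus strand; the same bases on the minus strand belong to Hspd1): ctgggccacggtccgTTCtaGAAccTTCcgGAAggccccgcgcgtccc
Dnajb6 (chr5:29735837-29735879, plus strand): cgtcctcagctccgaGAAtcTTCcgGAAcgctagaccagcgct
The match in Hsph1 lay after its start.

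The 4 arrays had values for 28600, 27951, 28764 and 28806 of 28845 probes (high-fat 24 and 6 weeks, then plain 24 and 6 weeks), and 27870 probes had one on all 4. The standard deviation of log2 ratios over probes was 0.39, 0.37, 0.46 and 0.53 in the same order, so the plain arrays were the more dispersed. On the plain arrays the ratio moved with the last 2 digits of the probe identifier, called the probe's place here. Whether these digits give a position on the array was not established. Medians by place on the plain arrays ran between -0.12 and 0.27 at 24 weeks and between -0.23 and 0.54 at 6 weeks. On the high-fat arrays they ran between -0.030 and 0.096 at 24 weeks and between -0.023 and 0.056 at 6 weeks. Calls for high-fat over plain diet below are therefore also given after centring by place, an alternative chosen after seeing the data, in which each array's median over probes with the same last 2 digits and the same letter in the identifier was subtracted. Markers of other liver cells moved with the diets: 5 of 8 measured macrophage markers rose against chow, with list medians of 0.96, 0.89, 1.18 and 1.35 on the 4 arrays, and 5 of 8 stellate cell markers rose and 1 fell, with medians of 0.34, 0.57, 0.68 and 0.53. Lymphocyte and neutrophil markers had 3 of 7 higher, bile duct markers 1 of 5 higher, and none of 7 hepatocyte markers and 5 endothelial markers passed the test. The medians over the 4 arrays were 0.29, 0.34, -0.29 and 0.095 in that order of lists. The part of these cells in the chaperone values was not tested, and fewer cells of a type cannot be told apart from less RNA per cell. Ratios give no levels, so the presence of liver markers could not be checked.

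**Figure D1:**
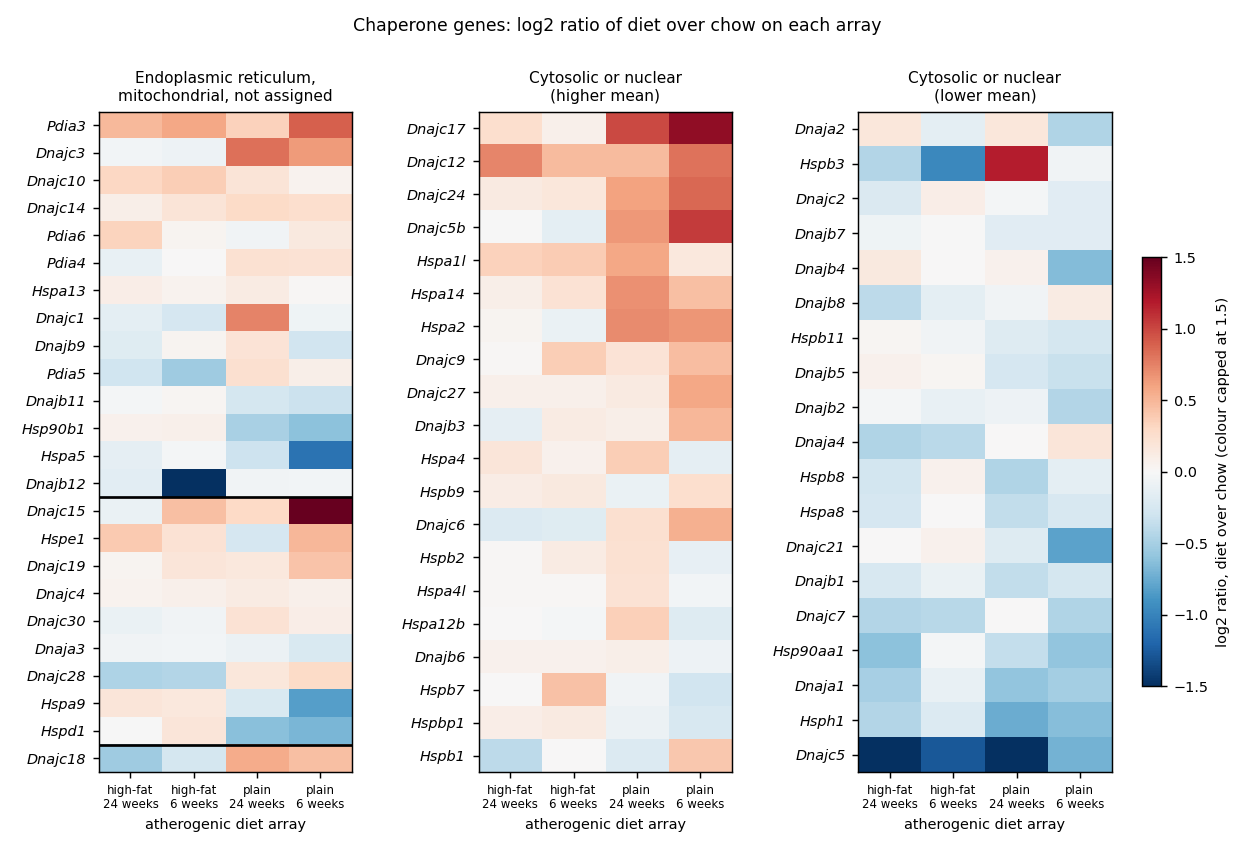
Log2 ratio of diet over chow for each of the 63 chaperone genes (rows, grouped by compartment) on the 4 arrays (columns, high-fat before plain). Dnajc5 is far below 0 on all 4 arrays, and many Dnajc genes lie above 0 on the plain arrays and near 0 on the high-fat arrays.

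In the mean over the 4 conditions few chaperones passed the test against chow. Its spread includes differences between the diets and durations, so a gene changed on some arrays only can fail it. In the limma test of the mean of 4 arrays against 0, adjusted over 24346 features, 2 of 63 chaperones rose, Dnajc12 and Pdia3, and 2 fell, Dnajc5 and Hsph1. That is 3.17% in each direction, against 5.55% of all named genes higher and 5.08% lower, a share below the background. At an unadjusted p under 0.05 there were 15, or 23.8%, against 29.6% of all named genes. With high-fat and duration terms in the limma model, which leaves 1 residual degree of freedom, 12 chaperones were higher and 10 lower. These shares of 19.0% and 15.9% stood against 20.2% and 16.9% of all named genes. Without the high-fat 24-week or the plain 24-week array 1 chaperone passed, Dnajc5. The median chaperone had a mean log2 ratio of 0.029, and the median of all genes was 0.0046. By compartment the medians were -0.048 for cytosolic and nuclear, 0.072 for endoplasmic reticulum and 0.042 for mitochondrial chaperones. On all 4 arrays 13 chaperones lay above 0 (7 cytosolic or nuclear, 4 of the reticulum, 2 mitochondrial) and 10 lay below (7, 2 and 1). Of all genes, 2831 and 2735 did so.

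**Figure D2:**
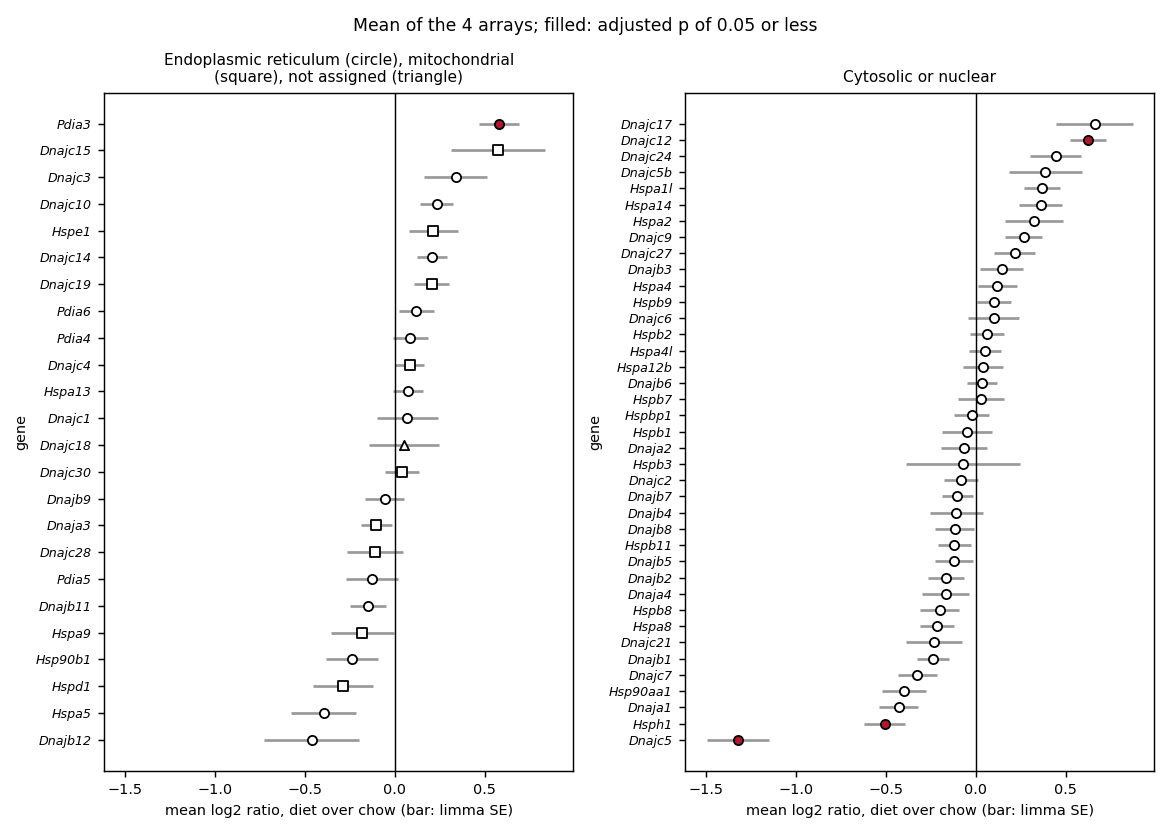
Mean log2 ratio of diet over chow over the 4 arrays for each chaperone, by compartment, with limma standard errors. Filled points passed an adjusted p of 0.05: Dnajc12 and Pdia3 above 0, Dnajc5 and Hsph1 below.

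Among the endoplasmic reticulum chaperones Pdia3, the isomerase that works with calnexin and calreticulin on glycoproteins and in loading of MHC class I, was the highest. Its log2 ratio was 0.48 and 0.58 on the high-fat arrays (24 and 6 weeks) and 0.35 and 0.90 on the plain arrays. All 4 arrays lay above 0, and the plain 6-week array was the highest. The mean was 0.58 ± 0.11 (limma standard error, n = 4 arrays), 1.5-fold over chow, with a limma adjusted p of 0.0255. Without the high-fat 24-week, high-fat 6-week or plain 24-week array the limma adjusted p was 0.0635, 0.0665 or 0.0736. The other disulfide isomerases of the main set did not pass the test. Pdia4, which is found with Hspa5 in the reticulum's chaperone complex, had -0.11 and 0.0066 on the high-fat arrays and 0.23 and 0.22 on the plain arrays, with a mean of 0.086 ± 0.098 and an adjusted p of 0.603 by limma. Pdia6, which limits stress signalling from the reticulum, had 0.34 and 0.047 on the high-fat arrays and -0.050 and 0.14 on the plain arrays, with a mean of 0.12 ± 0.097 and an adjusted p of 0.464 by limma.

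Hspa5, the Hsp70 of the reticulum and a common readout of its stress response, lay below 0 on all 4 arrays without passing the test of the mean. The model with high-fat and duration terms called 12 chaperones higher and 10 lower. In that model Hspa5 passed as lower, as did Hsp90b1 (limma adjusted p = 0.0343 and 0.0346). It had -0.14 and -0.025 on the high-fat arrays and -0.31 and -1.11 on the plain arrays, a mean of -0.39 ± 0.18 with a limma adjusted p of 0.211. The plain 6-week array stood far below the others. Its 2 probes disagreed on the other arrays. The first had -0.47, 0.080, -0.62 and -1.02 (high-fat 24 and 6 weeks, plain 24 and 6 weeks), and the second had 0.19, -0.13, 0.010 and -1.19. Both were lowest on the plain 6-week array and were on either side of 0 on the high-fat arrays. Hsp90b1, the reticulum's Hsp90, had 0.066 and 0.073 on the high-fat arrays and -0.48 and -0.61 on the plain arrays: slightly above 0 on both high-fat arrays and below on both plain ones. Its mean of -0.24 ± 0.14 did not pass (limma adjusted p = 0.325). Dnajb11, the J-domain partner of Hspa5, had -0.033 and 0.027 on the high-fat arrays and -0.27 and -0.32 on the plain arrays, with a mean of -0.15 ± 0.099 and a limma adjusted p of 0.367.

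The 4 chaperones with the reticulum stress element did not have a common value. Their mean log2 ratios were -0.39 for Hspa5, -0.24 for Hsp90b1, 0.12 for Pdia6 and 0.34 for Dnajc3, the inhibitor of the stress kinase PERK. Dnajc3 had -0.040 and -0.080 on the high-fat arrays and 0.83 and 0.64 on the plain arrays, so it was above 0 on the plain arrays only. The lowest member of the compartment was Dnajb12, a membrane J-domain protein of the reticulum, with -0.15 and -1.59 on the high-fat arrays and -0.053 and -0.043 on the plain arrays. The high-fat 6-week array stood alone and set its mean of -0.46 ± 0.26, with a limma adjusted p of 0.301.

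**Figure D3:**
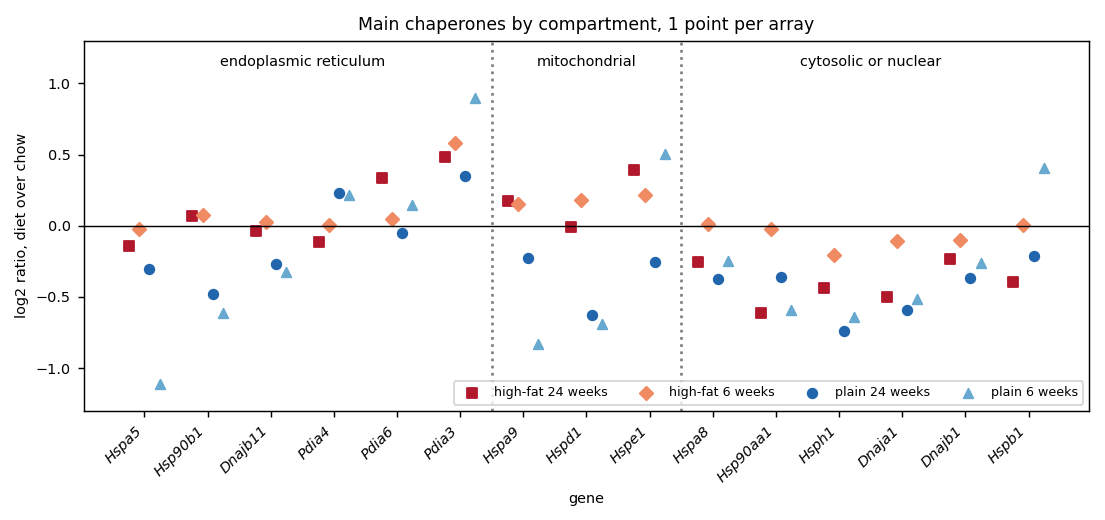
Log2 ratio of diet over chow on each array for the main chaperones of the endoplasmic reticulum, mitochondria and cytosol, high-fat arrays left of plain arrays. Pdia3 lies above 0 and Hsph1 below 0 on all 4 arrays, and Hsp90b1, Hspd1 and Hspa9 lie below 0 on both plain arrays.

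No mitochondrial chaperone passed the test of the mean for diet over chow, but with high-fat and duration terms Hspd1 passed as lower (limma adjusted p = 0.0223). Hspd1, the large subunit of the folding chamber, had -0.010 and 0.18 on the high-fat arrays and -0.62 and -0.69 on the plain arrays, a mean of -0.29 ± 0.17 and a limma adjusted p of 0.305. Hspe1, its lid, had 0.39 and 0.22 on the high-fat arrays and -0.26 and 0.50 on the plain arrays, a mean of 0.21 ± 0.14 and a limma adjusted p of 0.352. These genes share the heat shock element printed above, and their ratios lay furthest apart on the plain 6-week array. Hspa9, the import motor's Hsp70, had 0.18 and 0.16 on the high-fat arrays and -0.23 and -0.83 on the plain arrays, a mean of -0.18 ± 0.18 and a limma adjusted p of 0.539. The highest mitochondrial mean belonged to Dnajc15, a J-domain protein of the import motor: -0.10 and 0.45 on the high-fat arrays and 0.30 and 1.65 on the plain arrays, a mean of 0.57 ± 0.26 and a limma adjusted p of 0.21.

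In the cytosol the largest change was in Dnajc5, the cysteine-string protein of secretory vesicles. It had -1.53 and -1.27 on the high-fat arrays (24 and 6 weeks) and -1.78 and -0.71 on the plain arrays. All 4 arrays were far below 0, and the plain 6-week array was the nearest to it. The mean was -1.32 ± 0.17, a signal 2.5-fold higher in chow, with a limma adjusted p of 0.00782. It passed with any 1 array left out (limma adjusted p between 0.00436 and 0.0498). Dnajc5 has 1 probe, as does Pdia3. Every array had the diet in Cy5, and without a dye swap a dye bias of the probes and the diet cannot be told apart. This limit holds for each call against chow. Dnajc12, a co-chaperone of the aromatic amino acid hydroxylases, was the other riser, at 0.74 and 0.47 on the high-fat arrays and 0.48 and 0.82 on the plain arrays with a mean of 0.63 ± 0.10, 1.54-fold over chow (limma adjusted p = 0.0143). Without the high-fat 24-week or the plain 24-week array its limma adjusted p was 0.0564 or 0.0623. Its 2 probes averaged 0.86 and 0.39, and both lay above 0 on every array.

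Hsph1, the exchange factor and disaggregase of the cytosolic Hsp70 system, fell. It had -0.44 and -0.20 on the high-fat arrays and -0.74 and -0.64 on the plain arrays, all below 0, with a mean of -0.51 ± 0.11, 1.42-fold higher in chow (limma adjusted p = 0.0382). Without the high-fat 24-week, plain 24-week or plain 6-week array the limma adjusted p was 0.0939, 0.153 or 0.0935. Its 2 probes averaged -0.78 and -0.23. Of the other main cytosolic chaperones, none passed the test of the mean. Hsp90aa1, Dnajb1 and Hspa8 passed as lower with high-fat and duration terms (limma adjusted p = 0.027, 0.032 and 0.0471). Over all 63 chaperones the model with those terms called 12 higher and 10 lower. These shares of 19.0% and 15.9% stood beside 20.2% and 16.9% of all named genes. Hsp90aa1, the inducible cytosolic Hsp90, had -0.61 and -0.025 on the high-fat arrays and -0.36 and -0.59 on the plain arrays (mean -0.40 ± 0.12, limma adjusted p = 0.0883). Hspa8, the constitutive Hsp70, had -0.25 and 0.010 on the high-fat arrays and -0.37 and -0.25 on the plain arrays (mean -0.22 ± 0.097, limma adjusted p = 0.201). Its 2 probes had -0.59 and 0.10 on the plain 6-week array. The second ends in 12, and the median used for centring it there was 0.61. Dnajb1, the J-domain protein that serves Hsp70, had -0.24 and -0.096 on the high-fat arrays and -0.37 and -0.26 on the plain arrays (mean -0.24 ± 0.089, limma adjusted p = 0.136). On the high-fat 6-week array, Hsp90aa1, Hspa8 and Dnajb1 lay near 0, between -0.10 and 0.01, while on the other 3 arrays each lay below 0. Hspb1, the stress-induced small heat shock protein, had -0.40 and 0.0066 on the high-fat arrays and -0.21 and 0.41 on the plain arrays and no common direction (mean -0.048 ± 0.14, limma adjusted p = 0.848). The highest cytosolic or nuclear mean belonged to Dnajc17, at 0.66 ± 0.21, and did not pass (limma adjusted p = 0.101). Dnaja1, the J-domain protein of the cytosolic Hsp70 cycle, was just short of the test (mean -0.43 ± 0.11, limma adjusted p = 0.0537). It passed as lower at 0.0453 after centring by place. Hspa1l, an Hsp70, lay above 0 on all 4 arrays and passed as higher only after centring (mean 0.37 ± 0.099, limma adjusted p = 0.0632, and 0.0361 after centring). Both were named after their values were seen. After centring 3 of the 63 chaperones were higher against chow and 3 lower, beside 987 and 881 of the 13705 named genes.

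Diet over chow had called 4 chaperones without high-fat and duration terms in the limma model and 22 with them. In the model with those terms, high-fat over plain diet called 15. With 2 arrays a side and 1 residual degree of freedom in the limma model, 3 of 63 were higher and 12 lower. Each of the 15 rested on 1 used probe. That is 4.76% higher, against 4.57% of all named genes, and 19.0% lower, against 8.31% of them. After centring by place 3 were higher and 8 lower, against 6.55% and 8.46% of all genes. The lower share among chaperones was then 12.7%. The 3 higher were Hspd1, Hspa9 and Hsp90b1, a share near that of all named genes as deposited and below it after centring. The lower were mostly Dnajc genes. By compartment the calls, higher and lower, were 0 and 7 in the cytosol and nucleus, 1 and 2 in the endoplasmic reticulum, and 2 and 2 in mitochondria, with Dnajc18 lower as well. With high fat as the only term of the limma model 6 passed on all 4 arrays. In that model 0 passed without the high-fat 24-week, high-fat 6-week or plain 6-week array, and 18 passed without the plain 24-week array. Some markers of hepatocytes and other cells moved with this contrast too. The secreted hepatocyte proteins Alb and Ttr, named after their values were seen, were lower with high fat, and none of the other 5 hepatocyte markers passed: Alb had -1.28 and -1.34 on the high-fat arrays and 0.39 and 0.069 on the plain arrays, and Ttr had -1.27 and -1.34 on the high-fat arrays and 0.58 and 0.42 on the plain arrays. Their differences were -1.53 ± 0.14 and -1.81 ± 0.13 (limma adjusted p = 0.012 and 0.00689, and 0.00798 and 0.00428 after centring by place). The list as a whole did not follow them: 4 of its 7 genes had a difference above 0, and the median difference was 0.23. Its median ratio was -0.16 and -0.18 on the high-fat arrays and 0.34 and -0.0033 on the plain arrays. Of the bile duct markers, Krt19 was lower (-0.75, limma adjusted p = 0.0247, and 0.0161 after centring). No macrophage, stellate, lymphocyte, neutrophil or endothelial marker passed as deposited, and after centring the stellate marker Vim and the endothelial marker Stab2 passed as lower (limma adjusted p = 0.0258 and 0.0363). The part of these markers' cells in the chaperone differences was not tested.

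Hspd1 averaged 0.085 on the high-fat arrays and -0.66 on the plain arrays, a difference of 0.74 ± 0.14 (limma adjusted p = 0.0273). Hspa9 averaged 0.17 and -0.53, a difference of 0.69 ± 0.17 (limma adjusted p = 0.0449). Without the plain 6-week array, and with high fat as the only term, the difference of Hspa9 was 0.39 (limma adjusted p = 0.0971). Its call was also lost after centring on each array's median (limma adjusted p = 0.0545) and without the probes at the places that were high on the plain arrays (0.0501). Hsp90b1 averaged 0.070 and -0.55, a difference of 0.62 ± 0.14 (limma adjusted p = 0.0338). In each gene the high-fat arrays were near chow and the plain arrays below it. After centring by place the limma differences were 0.71, 0.75 and 0.65, with adjusted p-values of 0.0182, 0.0294 and 0.0216. Hspa5 had the same order, with a difference of 0.62 ± 0.22, but a limma adjusted p of 0.0964, and 0.181 after centring. Hspe1, the partner of Hspd1, did not pass (difference 0.18, limma adjusted p = 0.584, and 0.446 after centring).

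The largest difference was that of Hspb3, a muscle small heat shock protein, with -0.44 and -0.97 on the high-fat arrays and 1.18 and -0.050 on the plain arrays. Its plain 6-week array lay near 0, so the plain value rested on the 24-week array, and the difference was -1.27 ± 0.19 (limma adjusted p = 0.0203, and 0.0106 after centring). With high fat as the only term it was -0.66 without the plain 24-week array and -1.89 without the plain 6-week array (limma adjusted p = 0.119 and 0.0655). Dnajc17, a spliceosome-associated J-domain protein, had 0.25 and 0.076 on the high-fat arrays and 0.99 and 1.33 on the plain arrays and a difference of -0.99 ± 0.17 (limma adjusted p = 0.0222). Dnajc5b, the testis relative of Dnajc5, had -0.0033 and -0.15 on the high-fat arrays and 0.65 and 1.04 on the plain arrays and a difference of -0.92 ± 0.17 (limma adjusted p = 0.0253). Both probes end in 24, a place high on the plain arrays, and the differences shrank to -0.54 and -0.46 after centring (limma adjusted p = 0.0331 and 0.0462). Dnajc18, a membrane J-domain protein, had -0.53 and -0.27 on the high-fat arrays and 0.55 and 0.45 on the plain arrays: below 0 with high fat and above 0 without it. Its difference of -0.90 ± 0.15 (limma adjusted p = 0.0222) was -0.88 after centring by place. Dnajb12, the fifth by size, did not pass, with a difference of -0.83 ± 0.31 and a limma adjusted p of 0.111, and 0.112 after centring.

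A split by J-domain family was not planned and is given as a description, since genes are not replicates. Among the Dnajc genes, 18 of 21 had a lower ratio with high fat than without it. Of these, 8 passed the limma test and 6 did so after centring by place. Of all named genes, 57.1% had a lower ratio. In the other J-domain families 3 of 4 Dnaja and 7 of 11 Dnajb genes had a difference above 0, with medians of 0.13 and 0.14. None of those genes passed as higher, and 1 Dnaja gene, Dnaja4, passed as lower. The Dnajc family's median difference was -0.24, against -0.065 for all genes. Its median ratio was -0.0033 and 0.071 on the high-fat arrays and 0.22 and 0.42 on the plain arrays at 24 and 6 weeks. The other chaperones that were lower with high fat, named after their values were seen, had smaller differences. Dnajc3 had -0.040 and -0.080 on the high-fat arrays and 0.83 and 0.64 on the plain arrays, with a difference of -0.80 ± 0.14 (limma adjusted p = 0.0228). Dnajc28, a mitochondrial J-domain protein, had -0.47 and -0.44 on the high-fat arrays and 0.17 and 0.29 on the plain arrays, below chow with high fat and above it without (difference -0.68 ± 0.13, limma adjusted p = 0.0289). Dnajc24, a J-domain protein of diphthamide synthesis, had 0.13 and 0.17 on the high-fat arrays and 0.60 and 0.86 on the plain arrays, above chow on every array (difference -0.58 ± 0.14, limma adjusted p = 0.0406). Dnaja4, of the cytosolic Hsp70 cycle, had -0.45 and -0.40 on the high-fat arrays and 0 and 0.18 on the plain arrays (difference -0.51 ± 0.14, limma adjusted p = 0.0492). With its probe that lacked 1 value included, the difference of Dnaja4 was -0.19 (limma adjusted p = 0.378). Each of Dnajc3, Dnajc28, Dnajc24 and Dnaja4 passed again after centring by place (limma adjusted p between 0.0173 and 0.0488).

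A further 4 passed only as deposited. Hspa2, an Hsp70 best known from testis, had 0.040 and -0.10 on the high-fat arrays and 0.71 and 0.66 on the plain arrays (difference -0.71 ± 0.13, limma adjusted p = 0.0265). Dnajc6, the auxilin that uncoats clathrin vesicles, had -0.20 and -0.18 on the high-fat arrays and 0.24 and 0.54 on the plain arrays (difference -0.58 ± 0.14, limma adjusted p = 0.0425). Pdia5, a disulfide isomerase, had -0.30 and -0.54 on the high-fat arrays and 0.25 and 0.086 on the plain arrays (difference -0.58 ± 0.13, limma adjusted p = 0.0368). Dnajc15 differed by -0.80 ± 0.21 (limma adjusted p = 0.0472), and its high-fat 6-week value lay above its plain 24-week value. With high fat as the only term its difference was -0.12 without the plain 6-week array and -1.48 without the plain 24-week array. After centring by place their limma adjusted p-values were 0.108, 0.0804, 0.0584 and 0.0598.

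**Figure D4:**
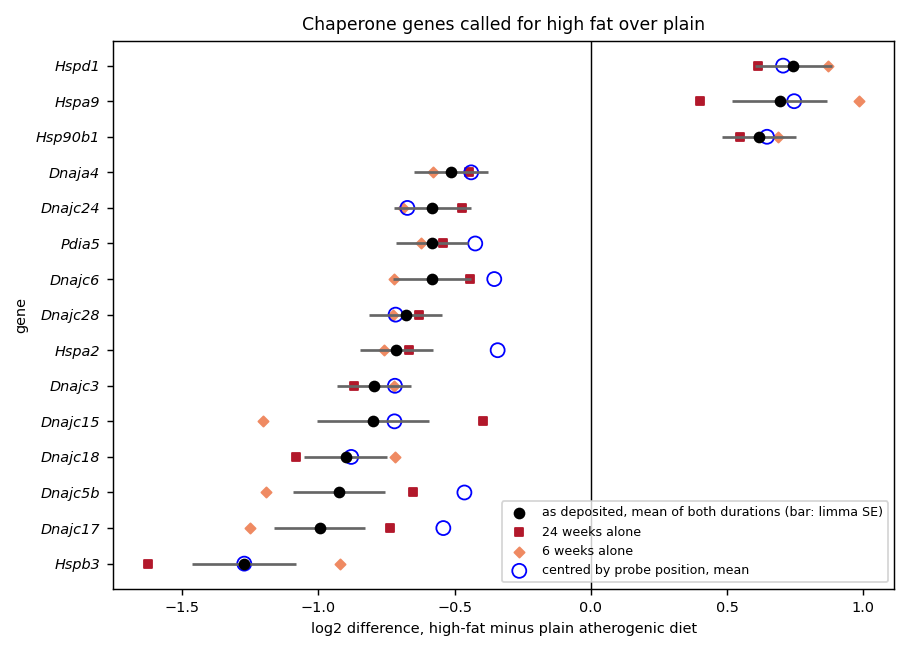
Difference in log2 ratio, high-fat minus plain diet for the 15 chaperones past the test: black, the mean of both durations with its limma standard error, coloured, 24 and 6 weeks alone, open, after centring by probe place. Hspd1, Hspa9 and Hsp90b1 lie above 0, and the differences of Dnajc17 and Dnajc5b become smaller after centring.

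**Figure D5:**
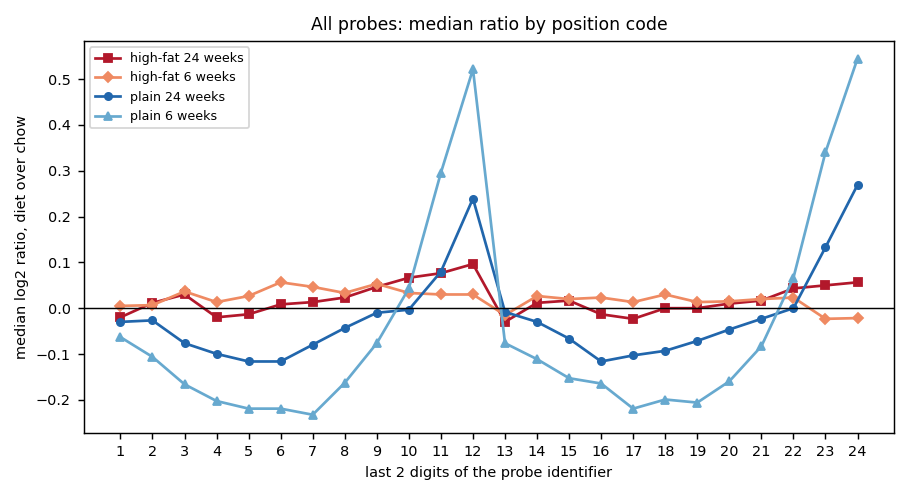
Median log2 ratio over all probes by the last 2 digits of the probe identifier, for each array. The plain 6-week medians run between -0.23 and 0.54 and the high-fat 6-week medians between -0.023 and 0.056.

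Between 24 and 6 weeks no chaperone passed. The limma test called 0% of all named genes, with 8 chaperones and 1326 genes at an unadjusted p under 0.05, and the smallest chaperone adjusted p was 0.40. The 5 largest differences were -0.95 ± 0.21 for Dnajc15 (adjusted p = 0.40 by limma), 0.88 ± 0.19 for Hspb3, 0.72 ± 0.31 for Dnajb12, -0.67 ± 0.21 for Dnajc5 and -0.51 ± 0.14 for Hspb1 (limma adjusted p between 0.40 and 0.545). Hspb1 was lower at 24 weeks on both diets, the plain 6-week array being the highest at 0.41. Its 2 probes had 0.76 and 0.053 on that array. The first ends in 11, and the median used for centring it there was 0.34.

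Genes that act with the chaperones were read from lists of background knowledge. Against chow, 5.55% of all named genes rose and 5.08% fell, and the counts of each list stand beside these shares. Of 39 measured genes of endoplasmic reticulum folding and the unfolded protein response, 3 rose against chow and none fell. They were Fkbp11, a secretory-pathway prolyl isomerase (0.75 ± 0.14, limma adjusted p = 0.0226), Sec61b, a subunit of the translocation channel (0.53 ± 0.11, adjusted p = 0.0291 by limma), and Ddit3, the stress-induced transcription factor CHOP (0.41 ± 0.092, limma adjusted p = 0.0402). Calr, Xbp1 and Atf4 had mean ratios of -0.014, 0.037 and 0.036 and did not pass. The list's median was 0.045, with 0.050 and 0.065 on the high-fat arrays and 0.14 and -0.020 on the plain arrays. Of 32 measured cytosolic cofactors 3 rose, Pfdn5 and Vbp1 of the prefoldin complex (0.79 ± 0.14, limma adjusted p = 0.0193, and 0.37 ± 0.088, adjusted p = 0.045) and Bag2, an Hsp70 exchange factor (0.57 ± 0.13, limma adjusted p = 0.0436). Of 13 mitochondrial folding and protease genes only Clpx, the ATPase of the Clp protease, passed: it fell (-0.76 ± 0.18, limma adjusted p = 0.0435).

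For high fat over plain, named after their values were seen, Manf and Syvn1 of the reticulum list were higher by 0.67 and 0.59 (limma adjusted p = 0.0329 and 0.0358, and 0.0176 and 0.0332 after centring by place), and Trib3 and Ganab differed by -0.59 and -0.75 (adjusted p = 0.0365 and 0.039 by limma). After centring Ganab passed and Trib3 did not (limma adjusted p = 0.0455 and 0.131). Herpud1 and Sdf2, which differed by 0.49 and -0.50, passed only after centring (limma adjusted p = 0.0205 and 0.040). Of the list's 39 genes 2 were thus higher and 2 lower as deposited, and 3 and 2 after centring. Of all named genes 4.57% were higher and 8.31% lower as deposited, and 6.55% and 8.46% after centring. Manf is a secreted stress protein of the reticulum and Syvn1 its ubiquitin ligase for misfolded proteins. In the cytosolic list Fkbp5, a glucocorticoid-induced Hsp90 cofactor, was higher by 0.80 (limma adjusted p = 0.0224, and 0.0145 after centring), and Cct7 and Pfdn2 differed by -0.80 and -0.66 (adjusted p = 0.0352 and 0.0301 by limma). After centring Pfdn2 passed and Cct7 did not (limma adjusted p = 0.0308 and 0.101). In the mitochondrial list Htra2, a protease, was higher by 0.65 (limma adjusted p = 0.0307, and 0.0253 after centring). The median high-fat difference was -0.016 in the reticulum list, -0.051 in the cytosolic list and -0.28 in the mitochondrial list, against -0.065 for all genes.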

How the data were processed

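Long-oligonucleotide arrays measured liver RNA, amplified before cDNA synthesis per the labels, with diet in Cy5 and chow in Cy3. Per the labels' protocols, images were read with GenePix Pro and the authors normalised with LOWESS in GeneSpring. The deposited values are signed log ratios of unstated base, which the authors made after LOWESS and which were taken as log10 here. They were multiplied by 3.322 to give log2, since the interquartile range is then 28.2 to 52.4% of chow signal, against 7.77 to 13.5% if read as log2. This inference affects the size of all fold changes and not their direction or tests. Probe genes came from the platform annotation.

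Of 28845 probes, 975 lacked a value on an array and were left out. Probes of a gene were averaged (13705 genes), and probes with no symbol or several were kept singly, which gave 24346 features. limma 3.58.1 (R 4.3.3) tested the mean of the 4 log2 ratios against 0 with 3 residual degrees of freedom, and high fat over plain and 24 over 6 weeks in an additive model with 1. The deposited data were tested with Benjamini-Hochberg adjustment over all features at 0.05. Scripts were tested on simulated data. Members and lists were chosen with earlier results of these data known. Genes named were the main chaperones, those called for diet over chow, the 5 largest for high fat and for duration, the highest and lowest of each compartment, and called genes of the lists. Other names were chosen after their values were seen. The number of arrays limits precision.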

Additional observations from a re-analysis of the deposited data

Results flagged for a closer look

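The 15 chaperones whose high-fat and plain arrays differed past the limma threshold are listed with high-fat minus plain differences (log2). The limit of 1 residual degree of freedom applies to each, and the differences were tested between 2 arrays a side. Each of the 15 also rested on 1 used probe, and none of the 17 chaperones with several used probes was called. Where a chaperone had several probes, their mean ratios to chow lay between 0.0092 (Dnaja4) and 0.91 (Dnajc10) apart. Higher with high fat were Hspd1 (0.74), Hspa9 (0.69) and Hsp90b1 (0.62). Lower were Hspb3 (-1.27), Dnajc17 (-0.99), Dnajc5b (-0.92), Dnajc18 (-0.90), Dnajc15 (-0.80), Dnajc3 (-0.80), Hspa2 (-0.71), Dnajc28 (-0.68), Dnajc6 (-0.58), Pdia5 (-0.58), Dnajc24 (-0.58) and Dnaja4 (-0.51).

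After centring by probe place 11 of the 15 kept their call, 3 higher and 8 lower. Dnajc15, Hspa2, Dnajc6 and Pdia5 lost it (limma adjusted p = 0.0598, 0.108, 0.0804 and 0.0584). Dnajc15 had -0.10 and 0.45 on the high-fat arrays and 0.30 and 1.65 on the plain arrays, Hspa2 had 0.040 and -0.10 on the high-fat arrays and 0.71 and 0.66 on the plain arrays, and 4 of the 15 had a probe ending in 11, 12, 23 or 24. Dnajc28, a mitochondrial J-domain protein, had -0.47 and -0.44 on the high-fat arrays and 0.17 and 0.29 on the plain arrays. With 1 array per condition no condition could be searched for a deviating replicate.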

How the results depend on the processing

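No paired analysis was possible because no replicate numbers pair samples where each condition has 1 array. The additive model for high fat over plain already compares the diets within each duration. For diet over chow, 4 chaperones passed. Leaving out 1 array at a time gave 1 to 4 (1 without the plain 24-week or the high-fat 24-week array, 3 without the plain 6-week array). The count was 1 at an adjusted p of 0.01, 8 at 0.10, and 22 with high-fat and duration terms in the model. Dnajc5 kept its call in all 17 alternatives run. Dnajc12 lost it in 3, and Hsph1 and Pdia3 in 4 each, 3 of those 4 being left-out arrays. For high fat over plain, 15 passed. Leaving out 1 array, with high fat as the only term and chosen after seeing the data, gave 0 to 18 (0 without the plain 6-week, high-fat 6-week or high-fat 24-week array, 18 without the plain 24-week array), and the threshold of 0.01 gave 0 while the high-fat term alone, with all 4 arrays, gave 6. For 24 over 6 weeks the count was 0, with 1 without the plain 6-week or the high-fat 6-week array. The cytosolic median (-0.048) ran from -0.070 to 0.028 over left-out arrays (0.025 without the high-fat 24-week array) and the endoplasmic reticulum median (0.072) from -0.037 to 0.096. The mitochondrial median was 0.042 and ran from -0.017 to 0.089 over the 14 alternatives. No called result reversed. The causes were not tested. The scale of signal over background was not given, so no limit from brightness can be set.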
